A study of Mus musculus with 7 samples.

Results

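Fga, Fgb and Fgg encode the alpha, beta and gamma chains of fibrinogen, and their expression was followed in single cells of 7 mouse mammary tumors. The 3 genes were taken by name from the 33710 genes listed across the tumor matrices, and they were chosen by their measured levels per cell class and by how these ran with PYMT, Krt8, Prlr, Cited1 and Esr1 in epithelial cells. The tumors came from MMTV-PyMT; HK2 f/f mice, with the polyoma middle T oncogene (PYMT) under the MMTV promoter, which is active in mammary epithelium, and floxed but undeleted HK2. The labels give all 7 animals 1 genotype, wild type, and 1 time, 3 months after a tumor could be felt. By the study's methods such controls received tamoxifen and were on a C57BL/6 background. There was 1 Drop-seq library per mouse and no other group, so the libraries are called replicates 1 to 4 (title series CB) and 5, 7 and 8 (title series WT), and what CB and WT stand for is not given.

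Fibrinogen is a soluble plasma glycoprotein built of paired copies of each chain. Thrombin cuts it into fibrin, the mesh of a clot, and the intact protein also binds integrins on platelets and leukocytes. Hepatocytes are its main source, where all 3 chains are induced together by interleukin 6 in the acute-phase response. The luminal layer of the mammary gland, by contrast, holds milk-forming alveolar cells and hormone-sensing cells that carry the prolactin receptor (Prlr), the estrogen receptor (Esr1) and the transcriptional cofactor Cited1.

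The genes lie together on mouse chromosome 3 (build mm10, GENCODE annotation). Fgg spans 83007724 to 83015049 on the plus strand, Fga 83026076 to 83033627 on the plus strand and Fgb 83040141 to 83049863 on the minus strand, so the cluster covers 42.14 kb and Fga sits between the others. The sequence before each start is shown because Fga behaved unlike its neighbours. Each line gives the 250 bases before the RefSeq start (GRCm38.p6), 5′ to 3′ on the gene's own strand, from chr3:83007474-83007723 (+) for Fgg, chr3:83025903-83026152 (+) for Fga and chr3:83049864-83050113 (-) for Fgb. All 3 genes matched an entry, and for Fga the GENCODE gene starts inside the window. Capitals mark matches to the motifs named after the sequences.
Fgg: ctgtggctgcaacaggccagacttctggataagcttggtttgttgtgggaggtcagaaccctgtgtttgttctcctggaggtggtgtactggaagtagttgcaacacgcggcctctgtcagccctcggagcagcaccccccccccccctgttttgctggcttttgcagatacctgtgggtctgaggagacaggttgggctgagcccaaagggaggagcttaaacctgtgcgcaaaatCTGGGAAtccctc
Fga: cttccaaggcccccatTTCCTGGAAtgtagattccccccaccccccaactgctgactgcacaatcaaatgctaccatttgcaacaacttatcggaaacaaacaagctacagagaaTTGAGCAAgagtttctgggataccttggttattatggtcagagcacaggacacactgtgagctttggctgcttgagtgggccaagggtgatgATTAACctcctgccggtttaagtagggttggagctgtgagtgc
Fgb: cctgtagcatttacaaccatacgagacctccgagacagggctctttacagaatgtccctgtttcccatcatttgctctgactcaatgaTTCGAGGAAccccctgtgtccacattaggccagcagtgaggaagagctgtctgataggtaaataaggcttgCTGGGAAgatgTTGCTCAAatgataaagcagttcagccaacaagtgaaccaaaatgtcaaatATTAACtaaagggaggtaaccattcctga
6 motifs were searched on both strands. CTGGGAA, the core of the interleukin 6 response element, occurred once before Fgb and once before Fgg and not before Fga, against 9.10% of 32851 mouse promoter windows of the same length. The C/EBP motif TTGCNNAA, found in 9.56% of windows, occurred before Fga and Fgb, and in Fgb it began 11 bases after the CTGGGAA match. The STAT motif TTCNNNGAA (7.02% of windows) and the HNF1 motif ATTAAC (6.43%) occurred before Fga and Fgb. Neither the FOXA motif TGTTTAC (3.17% of windows) nor the palindromic estrogen response element (0.0639%) matched in any of the 3 windows. No capitalized match overlapped another. A match describes letters only, and no binding was measured here.

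A barcode was kept as a cell when it had 200 to 6000 genes, which left 15047 of 37000 barcodes, 1133 to 4780 per mouse, with a median of 527 to 694 unique molecular identifiers (UMIs, each 1 captured transcript end) per cell. No pair of libraries shared more than 1 cell barcode. Cells with at least 3 UMIs of Epcam, Krt8 and Krt18 were called epithelial, 6082 in all, and 1969 of these carried at least 1 UMI of Prlr, Cited1 or Esr1 and are called hormone-sensing-marked. Of the marked cells 1093 carried Prlr alone and 700 a single UMI of the 3 genes, so the mark does not establish a cell type. The mark was on 28.3% ± 10.4 (SD, n = 7 mice) of epithelial cells, 5.32% ± 4.32 of fibroblasts and 1.77% ± 2.22 of immune cells. Median depths per mouse in these classes were 731 to 1406, 422 to 1138 and 472 to 563 UMIs. Genes not used for the classes followed them: Krt19 stood at 3768 ± 2451 CPM (counts per 1000000 UMIs of the class) in marked epithelial and 53.4 ± 44.3 CPM in immune cells, while Ptprc, the pan-leukocyte phosphatase, stood at 5.40 ± 4.17 and 686 ± 236 CPM.

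Fgb and Fgg were present in every tumor and Fga was almost absent. The cells held 6889 UMIs of Fgb, 4169 of Fgg and 2 of Fga, so Fga made up 0.0181% of the 11060 chain UMIs (95% exact binomial interval 0.00219 to 0.0653, counting error only). Since Drop-seq counts transcript ends, these levels were not divided by gene length. Of the 2 Fga UMIs, 1 lay in a marked cell of replicate 4 that also had 13 UMIs of Fgb and 6 of Fgg, and 1 in an unmarked epithelial cell of replicate 1 without either chain. Fga had no row in the matrices of replicates 2, 5, 7 and 8 and was counted there as 0. Plrg1, a splicing factor gene 5658 bp past Fgb, stood at 65.7 ± 27.1 CPM in marked cells, and Rbm46, Lrat and Dchs2 had at most 3 UMIs in marked or unmarked epithelial cells.

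**Figure D1:**
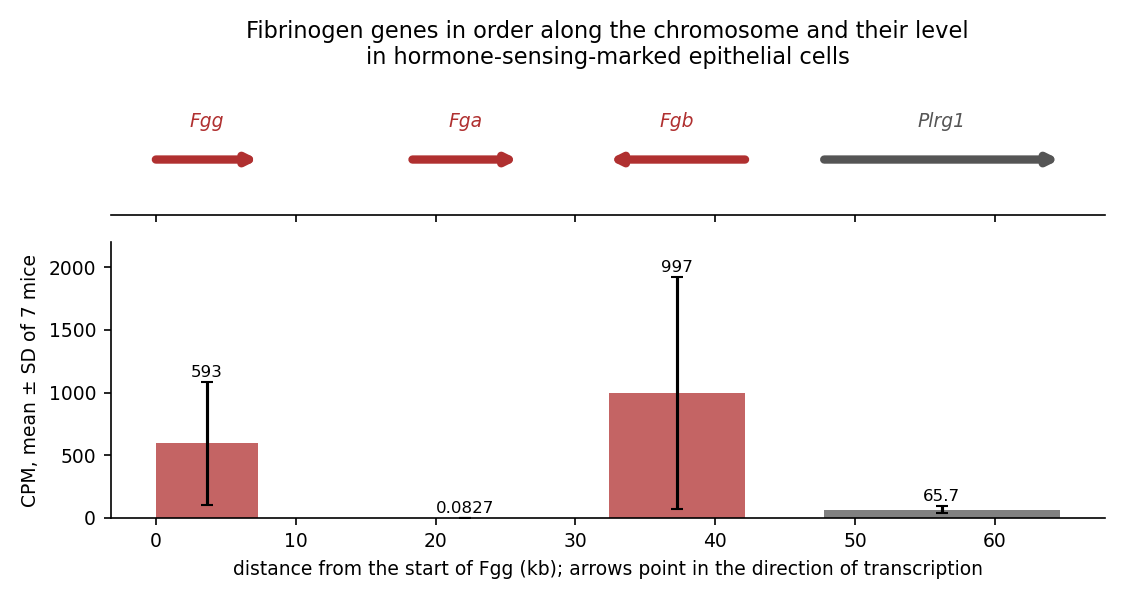
The upper strip places Fgg, Fga, Fgb and Plrg1 by distance from the start of Fgg (kb), and the bars give their level in hormone-sensing-marked epithelial cells (CPM, mean ± SD of 7 mice, bar width is gene length). Fgb at 997 and Fgg at 593 CPM flank Fga at 0.0827 CPM.

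Fibrinogen transcripts were concentrated in the hormone-sensing-marked epithelium. The summed level of the 3 chains in marked cells was 259, 1545, 2290, 4318, 704, 442 and 1572 CPM in replicates 1, 2, 3, 4, 5, 7 and 8 (1590 ± 1403, SD, n = 7). In unmarked epithelial cells it was 39.3, 58.5, 60.2, 219, 83.6, 21.6 and 62.4 CPM in the same order (77.8 ± 65.3). Replicate 4 was highest in both classes, every marked value lay above every unmarked one, and within a mouse the marked cells were 6.59-fold to 38.0-fold higher. The mean within-mouse difference was 3.92 ± 0.92 on the log2(CPM + 10) scale, higher in 7 of 7 mice. Because the rule that chose these genes already used this relation, it is given as a description without a test.

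Outside the epithelium the level was lower than in marked cells. Immune cells stood at 16.4 ± 23.9 CPM (0 to 67.8). Among them B cells reached 117 ± 224 CPM in the 4 mice with at least 10 such cells, above the 77.8 ± 65.3 CPM of unmarked epithelial cells, on 10 UMIs in the 50 B cells of replicate 4 and 1 UMI in all in the other mice. Fibroblasts stood at 20.9 ± 33.8 CPM, and endothelial cells had 0 UMIs among 71289, which allows up to 42.1 CPM. Myoepithelial cells held 1 fibrinogen UMI among 38489. Unassigned cells reached 105 ± 161 CPM. Epithelial cells carried 97.2% ± 1.66 of all fibrinogen UMIs, and marked cells alone 88.5% ± 7.15. A fibrinogen UMI was seen in 32.6% ± 14.0 of marked cells, 3.40% ± 2.29 of unmarked epithelial cells and 0.870% ± 1.09 of immune cells, where pooled median depths were 1406, 898 and 493 UMIs. After each cell was thinned to 500 UMIs, which left out 278 marked, 992 unmarked and 1959 immune cells, the shares were 24.4% ± 13.8, 1.89% ± 1.39 and 0.513% ± 0.577. Epithelial cells exceeded immune cells by 4.63 ± 1.17 log2 in 7 of 7 mice. Unmarked epithelial cells exceeded them by 1.85 ± 0.91 log2. The values just around the epithelial limit were 271 CPM in cells with exactly 2 UMIs of the 3 gate genes and 353 CPM in cells with exactly 3.

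**Figure D2:**
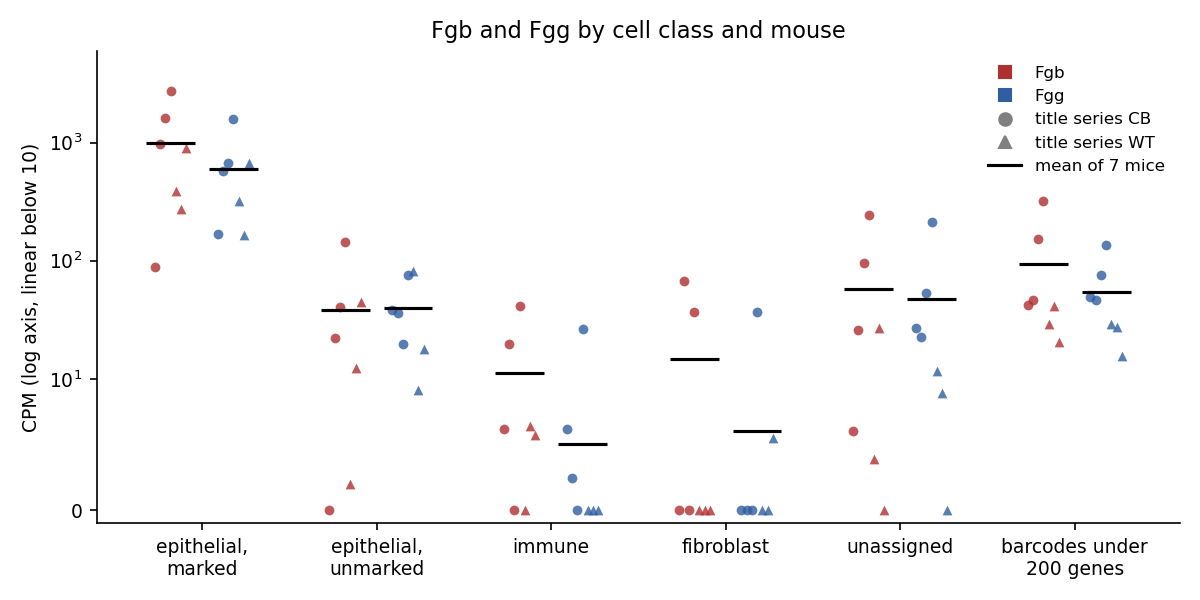
Points are mice (circles CB, triangles WT), black bars the mean of 7 mice, and the y axis gives CPM of Fgb (red) and Fgg (blue) on a log axis that is linear below 10. Fgb averages 997 CPM and Fgg 593 CPM in marked epithelial cells, against 38.0 and 39.7 CPM in unmarked ones.

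Liver transcripts were near 0 in the fibrinogen-rich cells. Of 10 hepatocyte genes looked for, 5 had a row (Ahsg, Apoa1, Apoa2, Apoh and Ttr), and these held 48 UMIs in all cells and 4 among the 1545988 UMIs of cells with at least 3 fibrinogen UMIs. Alb, Serpina1a, Serpina1b, Cyp2e1 and Apoc3 had no row in the matrices analysed here.

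The beta and gamma chains were often found in the same cells. Among marked cells, 641 had Fgb, 638 had Fgg and 463 had both, which is 72.2% of the Fgb cells and 72.6% of the Fgg cells. Replicate 4 gave 332 of the 463, and without it, a choice made after seeing the data, the shares were 69.7 and 58.5%. In replicates 1 and 5 Fgb was in 42.9 and 45.5% of the Fgg cells. Fgb held 63.0% of the Fgb and Fgg UMIs in marked cells pooled over mice. Per mouse this share was 34.4% in replicate 1, 62.9% in 2, 70.8% in 3, 63.3% in 4, 54.8% in 5, 62.5% in 7 and 57.0% in 8. Replicate 1 was the only mouse in which Fgg exceeded Fgb in marked cells. Its 95% exact interval, 27.0 to 42.4%, lay below those of the other 6 mice. These intervals treat UMIs as independent and are too narrow where UMIs share cells. In replicate 1 the 157 UMIs lay in 34 cells, with up to 17 in 1 cell. Expression was uneven among cells: the 322 epithelial cells with at least 10 fibrinogen UMIs held 8626 UMIs, and the richest cell, in replicate 4, held 128.

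Unmarked cells of 2 mice held the gamma chain almost alone. In replicate 1 the 822 unmarked cells held 42 UMIs of Fgg in 20 cells and none of Fgb. In replicate 5 the 326 unmarked cells held 41 UMIs of Fgg and 1 of Fgb, with Fgg and no Fgb in 14 cells. In the other 5 mice Fgb made up 38.2 to 71.4% of the chain UMIs of unmarked cells. PYMT was detected in 11 of the 20 Fgg cells of replicate 1 and 11 of the 14 of replicate 5, against 50.9% and 73.9% of all unmarked cells there. These Fgg cells were deeper than the class, with medians of 1166 against 929 UMIs in replicate 1 and 2699 against 1016 in replicate 5. Barcodes with under 200 genes held 41.9 CPM of Fgb and 49.5 CPM of Fgg in the library of replicate 1, and 29.1 CPM of each in that of replicate 5, where unmarked cells held 39.3 and 83.6 CPM of fibrinogen. The part of free RNA in the unmarked cells was not tested, nor was the difference in chain use, which was noticed in these data.

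**Figure D3:**
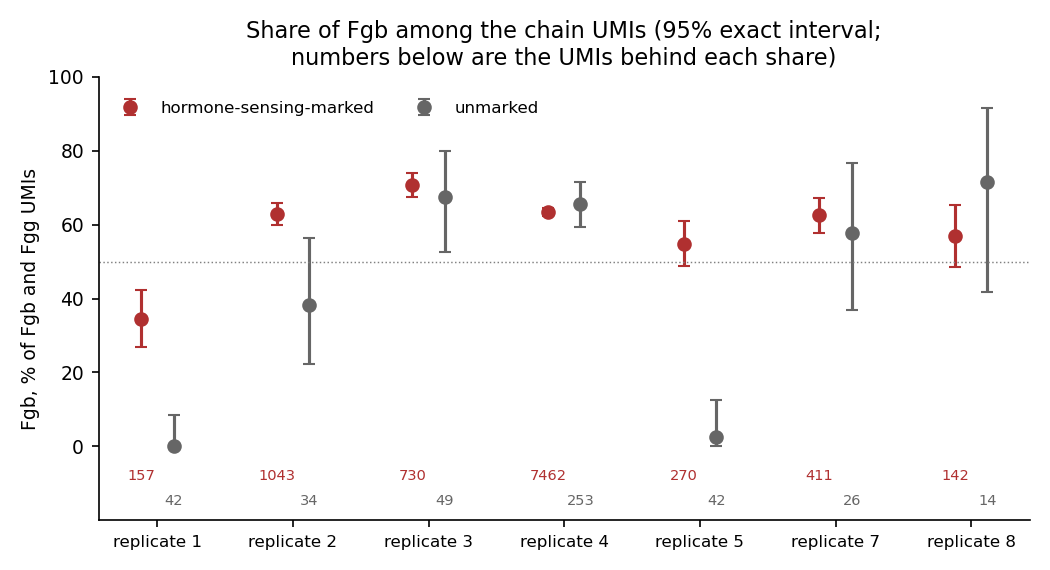
For each mouse (x axis) the y axis gives Fgb as % of Fgb and Fgg UMIs in marked (red) and unmarked (grey) epithelial cells, with 95% exact binomial intervals and the UMIs behind each share printed below. Unmarked cells of replicates 1 and 5 sit at 0 and 2.38%.

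Fibrinogen and the oncogene transcript ran opposite to each other among epithelial cells. Cells without a PYMT UMI held 280, 1456, 1358, 3895, 506, 712 and 1189 CPM of fibrinogen in replicates 1, 2, 3, 4, 5, 7 and 8. Cells with PYMT held 47.9, 289, 223, 1497, 323, 144 and 222 CPM, lower in every mouse, by -1.97 ± 0.70 log2 on average. The order was the same inside the marked class, at 2698 ± 1712 CPM without and 891 ± 985 CPM with PYMT. It was also the same among all epithelial cells of 1000 to 3000 UMIs, at 1488 ± 1272 and 313 ± 445 CPM. In unmarked cells of that depth the order turned, with 17.2 ± 18.1 CPM without and 46.0 ± 40.3 CPM with PYMT, the first value resting on 13 UMIs with none in 3 mice. Over all depths unmarked cells held 137 ± 167 CPM without and 47.8 ± 26.6 CPM with PYMT. Replicate 4 stood at 492 CPM without PYMT, and in replicates 1, 5 and 7 the level was higher with PYMT than without. PYMT itself separated the title series: cells without fibrinogen had 764 to 1208 CPM of PYMT in CB and 2770 to 3412 CPM in WT.

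Fibrinogen was higher where the hormone-sensing genes were higher. From cells with 0 fibrinogen UMIs through 1 to 2 and 3 to 9 to at least 10, the marked share was 22.6, 68.1, 86.8 and 96.6%, and Cited1 stood at 104, 533, 1363 and 1654 CPM pooled over mice. Prlr stood at 366, 1488, 2396 and 2388 CPM over the same steps. Replicate 4 gave 228 of the 322 cells of the last step. From 3 to 9 to at least 10 UMIs, Cited1 went up in the 4 CB mice and down in the 3 WT mice, to 645, 368 and 359 CPM from 810, 1032 and 1055 CPM in replicates 5, 7 and 8. Per mouse, Prlr was higher in cells with at least 3 fibrinogen UMIs than in those with 0 by 2.62 ± 0.72 log2 and Cited1 by 3.82 ± 1.11 log2, each in 7 of 7 mice. Esr1 was sparse, at 25.9 ± 9.88 against 11.2 ± 8.76 CPM, and also higher in 7 of 7. In replicates 1, 3 and 8 the cells with at least 3 fibrinogen UMIs held 1 Esr1 UMI each. The level of fibrinogen followed the number of Prlr, Cited1 and Esr1 UMIs in the cell, with 344 ± 363 CPM at 1 UMI, 1192 ± 1213 at 2 to 3 and 2919 ± 2117 at 4 or more. Cells with Prlr and neither other gene held 669 ± 593 CPM. Cells with Cited1 alone held 2528 ± 1314 CPM in the 3 mice with at least 10 such cells (replicates 2, 3 and 4), where cells with Prlr alone held 1102 ± 673 CPM, a match of mice also made after seeing the data.

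Krt8, a luminal keratin and 1 of the gate genes, was higher in fibrinogen-rich cells, by 0.70 ± 0.33 log2 in 7 of 7 mice. Within the marked class the values depended on depth. Over all depths fibrinogen there stood at 2032 ± 1915 CPM in cells with 0 or 1 Krt8 UMI, 1648 ± 2184 CPM with 2 to 4 and 1545 ± 1316 CPM with 5 or more, and these groups differed in depth, with median UMIs of 687, 978 and 2724. Among marked cells of 1000 to 3000 UMIs the values were 1353 ± 2010 (3 mice), 2197 ± 3072 (6 mice) and 2225 ± 1478 CPM (7 mice). In the 3 mice with at least 10 cells in both end groups fibrinogen was higher with 5 or more Krt8 UMIs than with 0 or 1, at 602 against 30.7 CPM in replicate 1, 4954 against 3666 CPM in replicate 4 and 2218 against 362 CPM in replicate 7.

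**Figure D4:**
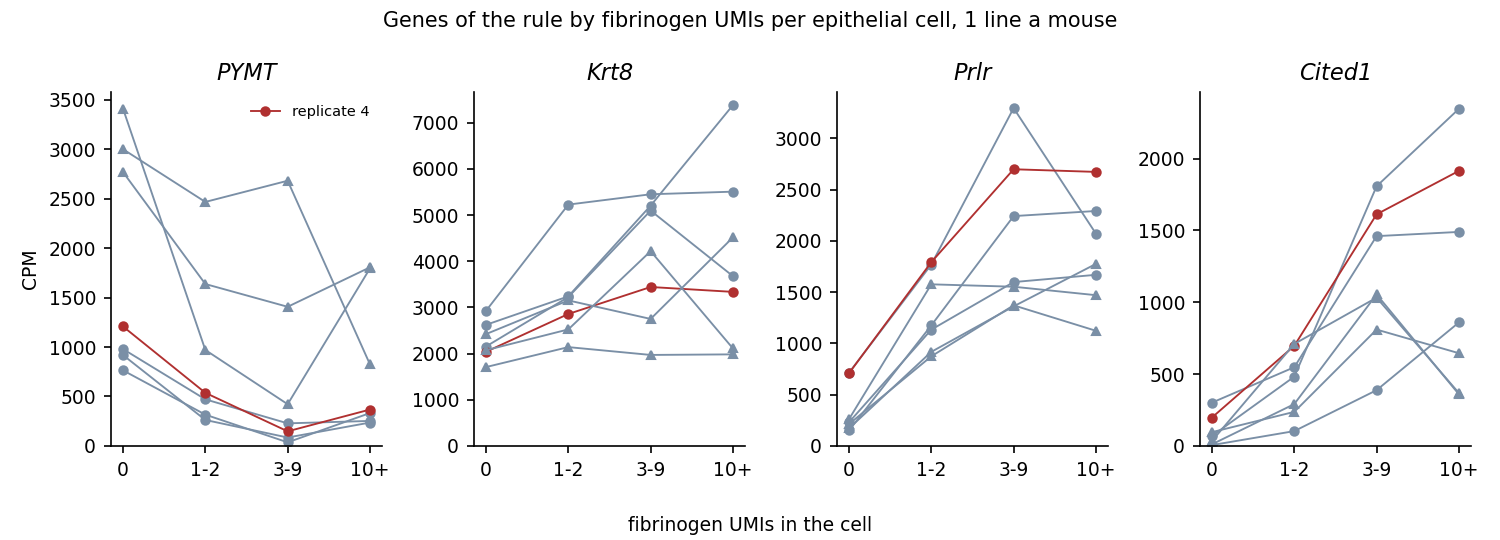
Each line is a mouse (circles CB, triangles WT, red replicate 4), the x axis groups epithelial cells by fibrinogen UMIs and the y axes give CPM of PYMT, Krt8, Prlr and Cited1. PYMT is lower at 10 or more fibrinogen UMIs than at 0 in each mouse, for example 368 against 1208 CPM in replicate 4 and 1807 against 2770 CPM in replicate 7, and Cited1 drops at the last step in the 3 WT mice. That step rests on few cells in some mice, 6 in replicate 8.

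The genes whose pattern was most like fibrinogen were sought over 39 points, each a class in a mouse with enough cells, among 10641 genes. Gipc2, a PDZ-domain protein gene, came first (Pearson r = 0.952), followed by the tetraspanin Tspan1 (0.936), the secreted inhibitor-like Wfdc2 (0.927), R3hdml (0.926), Fam25c (0.920), Krt19 (0.913), Mboat1 (0.908), the tryptophan-degrading enzyme Ido1 (0.904), the cysteine dioxygenase Cdo1 (0.902) and the uroplakin Upk3a (0.886). Fgb and Fgg each correlated with the sum they belong to at 0.967 and 0.963. Prlr, at 0.819, and Cited1, at 0.832, were below these. The points share libraries and cell classes, so the coefficients are descriptive.

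Genes outside the rule were tested between fibrinogen-high cells, with at least 3 chain UMIs, and cells with none. The high arm had 633 cells (13 to 431 per mouse, 431 of them in replicate 4) and the other arm 5104. The UMIs of each arm were summed within a mouse, and the sums were compared by edgeR (quasi-likelihood, mice as blocks, p-values adjusted by Benjamini-Hochberg). Of 8788 genes tested, 472 were higher and 761 lower in fibrinogen-high cells, 14.0% in all. An unadjusted p under 0.05 was found for 2113 genes, the background for such counts below. The high cells were deeper, with median UMIs of 1165 to 2585 per mouse against 702 to 1364. Markers of another lineage were on 20.6% of cells with 3 to 9 fibrinogen UMIs, 18.0% of those with at least 10 and 13.3% of those with none. With such cells left out 449 genes were higher and 692 lower. The higher count, 472, fell to 227 in cells of 1000 to 3000 UMIs, and without replicate 4 the total was 585.

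The same test inside the marked class compared 581 high with 1153 none cells, and 111 genes were higher and 215 lower of 5118, 6.37% in all. An unadjusted p under 0.05 was found there for 905 genes. All 581 high and 1153 none cells of this comparison were also in the first, so their calls are not independent: 110 of the 111 higher and 212 of the 215 lower genes were also called among all epithelial cells, 23.3% and 27.9% of the calls there and 99.1% and 98.6% of the calls in marked cells. Here too depth differed, with median UMIs of 1429 to 2846 in high and 973 to 2920 in none cells per mouse. Marked cells with no fibrinogen held 1430 ± 790 CPM of the milk gene Lalba, against 1299 ± 698 CPM in all epithelial cells with none. The comparison is therefore not one within cells shown to be of 1 lineage. Without replicate 4 the lower genes numbered 139, without replicate 7 the higher genes numbered 71, and among cells of 1000 to 3000 UMIs 72 genes were called.

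Hormone-sensing genes outside the rule were higher with fibrinogen. The rule had already used Prlr, Cited1 and Esr1 in these cells, and the lists were chosen with earlier results known. Calls of genes of the same lineage are therefore not independent of the rule. In all epithelial cells 10 of 11 tested members of that list were higher, where 5.37% of all genes were, and 1 was lower, the median log2 fold change being 2.13 against -0.07 over all genes. DESeq2 called 8 higher and 1 lower. Ptn, a secreted heparin-binding growth factor, had 1723 ± 1314 CPM in high and 137 ± 141 CPM in none cells (log2 fold change 3.81, SE 0.27, edgeR adjusted p = 9.2e-12). The glycoprotein hormone Stc2 had 485 ± 257 against 72.1 ± 75.5 CPM, and the chemokine Cxcl15 56.6 ± 33.2 against 7.70 ± 11.9 CPM. Igfbp4, an insulin-like growth factor binding protein, was the member that fell. Inside the marked class 4 of 11 were higher (Areg, Ptn, Calca and Stc2), where 2.17% of all genes were, and none was lower. Areg, an EGF receptor ligand, had 883 ± 749 against 209 ± 129 CPM there (log2 fold change 1.72, SE 0.20, edgeR adjusted p = 1.6e-05), but its call was lost in cells of 1000 to 3000 UMIs. Without the block the marked-class calls of Areg, Ptn and Stc2 were lost, and in the WT series alone that of Stc2. At an unadjusted p under 0.05 the marked class had 8 members higher and 1 lower, and DESeq2 called 4 higher and 0 lower. Calca was not among the DESeq2 calls in either comparison and was higher in 2 of 7 mice. Its none arms reached at most 27.2 CPM in the epithelium and 67.9 CPM in marked cells, both in replicate 5. Cxcl15 reached at most 33.6 CPM in a none arm of the epithelium, in replicate 4. Calca in both comparisons and Cxcl15 in the epithelium needed the high arm to pass the low-count filter. The counts of 10 and 4 higher are therefore not comparable with the shares of all genes.

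Upk3a, a member of no list, had the largest fitted rise among genes higher in 7 of 7 mice. It stood at 142, 1350, 1883, 1288, 269, 304 and 945 CPM in high cells of replicates 1, 2, 3, 4, 5, 7 and 8 and at 0.638 to 106 CPM in cells with none, with no overlap (log2 fold change 4.04, SE 0.27, edgeR adjusted p = 2.3e-12). Inside the marked class it had 931 ± 663 against 119 ± 101 CPM (log2 fold change 2.93). Nmu, a neuropeptide, and Calca, which encodes calcitonin and its related peptide, had larger fitted changes but were higher in 4 and 2 of 7 mice and had 15 and 71 UMIs in the high arm. Calca came almost wholly from replicate 5, at 591 CPM in high cells. Pir, Col8a1, AC118222.2, Cldn6, Gm26865 and Clca1 completed the 10 most raised genes, by 3.18 to 3.46 log2. Gm26865 and Clca1 were higher in 4 of 7 mice, on 25 and 22 UMIs in the high arm. Gm26865 and Nmu lost their calls with DESeq2, and Col8a1 lost its call in the WT series alone. Nmu, Pir, AC118222.2, Cldn6, Gm26865 and Clca1 passed the low-count filter only through the high arm, and Calca also needed that arm to pass. Among marked cells Tnfsf9, Tmem158, the glutathione transferase Gsta4 and the inter-alpha-trypsin inhibitor Itih2 rose by 2.0 to 2.45 log2. Tnfsf9 and Itih2 stood at no more than 30.1 and 38.5 CPM in any none arm of marked cells. They passed the low-count filter only through the high arm. In cells of 1000 to 3000 UMIs the calls of Tmem158 and Gsta4 were lost, and that of Itih2 was lost without replicate 4 and in the CB series alone. Hba-a1, alpha globin of red cells, rose there as well, by 2.15 log2, with 644 ± 1386 against 72.0 ± 103 CPM, and its call was lost when cells with markers of another lineage were left out. Reads may be divided between it and its near-identical copy Hba-a2.

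Genes of alveolar cells and milk were lower in fibrinogen-high cells. These mark the other luminal cell type, so their calls are not independent of the rule either. All 15 tested members fell in the epithelium, where 8.66% of all genes did, with a median of -1.94 log2, and 8 of 13 fell inside the marked class, where 4.20% of all genes did. DESeq2 called 9 of the 15 and 8 of the 13. Lalba, the milk protein alpha-lactalbumin, had 218 ± 295 against 1299 ± 698 CPM (log2 fold change -3.14, SE 0.36, edgeR adjusted p = 9.4e-08) and 139 ± 152 against 1430 ± 790 CPM in marked cells. The casein Csn3 had 4597 ± 3885 against 16865 ± 8825 CPM in marked cells. Csn2, a casein, and Glycam1, a milk mucin, had 5 and 3 UMIs in the high arm against 2888 and 2057 in the other. Nearly all of these came from replicate 2, at 2812 and 2030 CPM against at most 57.2 and 79.3 CPM in another mouse, and DESeq2 called neither gene. Both needed the none arm to pass the low-count filter, as Csn1s1 did in marked cells. The counts of 15 and 8 lower are therefore not comparable with the shares of all genes. The casein Csn1s1 fell by 3.16 log2 in the epithelium but was lower in only 5 of 7 mice and lost its call without replicate 4. In marked cells Ltf, the iron-binding lactoferrin, fell by 2.22 log2, a call lost in 9 of 17 alternatives.

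The most lowered genes were not milk genes alone. Prol1, Spink12 and Cox8b had no UMI among the 1545988 of the high arm and 185, 545 and 149 in the other. Of the Spink12 UMIs 484 came from replicate 3, and DESeq2 turned its log2 fold change to 1.06. Of the Prol1 UMIs 132 came from replicate 4, and DESeq2 did not call it. Inside the marked class the secretoglobin genes Scgb1b27 and Scgb2b27 fell by 6.56 and 4.96 log2, with 6.85 ± 10.4 against 770 ± 1121 CPM and 51.1 ± 52.3 against 1280 ± 1064 CPM. Car6, a secreted carbonic anhydrase, had 48.3 ± 67.4 against 848 ± 1478 CPM. Mup5 fell by 5.67 log2 on 1 UMI in the high arm against 190, and DESeq2 did not call it. With high cells taken from 1 fibrinogen UMI up, its log2 fold change was 0.44, and the Scgb1b27 call was lost. Saa3 had 2 UMIs in the high arm. Prol1, Spink12 and Cox8b in the epithelium and Scgb1b27, Mup5 and Saa3 in marked cells passed the low-count filter only through the none arm. Scgb1b27, Scgb2b27, Mup5 and Saa3 belong to families of close copies, so reads may be divided among paralogs.

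Acute-phase genes were mostly lower in fibrinogen-high cells. Of 10 tested in the epithelium 1 was higher, the hemoglobin-binding Hp, and 6 were lower, with a median of -1.31 log2, where 5.37% and 8.66% of all genes were. Of 9 tested in marked cells 1 was higher and 6 were lower, where 2.17% and 4.20% of all genes were. Saa3 and Lbp passed the low-count filter there only through the none arm. The count of 6 lower is therefore not comparable with the share of all genes. DESeq2 called 0 higher and 4 lower in the epithelium and 0 and 6 in marked cells. Lcn2, a siderophore-binding protein, had 3667 ± 2775 against 9210 ± 3197 CPM, lower in 7 of 7 mice (log2 fold change -1.87, SE 0.25, edgeR adjusted p = 1.1e-06), and 2822 ± 2327 against 7440 ± 3602 CPM in marked cells. Chil1, a chitinase-like protein, and Lbp, which binds bacterial lipopolysaccharide, were also lower in 7 of 7 mice, at 186 ± 190 against 581 ± 214 CPM and 12.3 ± 17.3 against 58.5 ± 20.8 CPM. The epithelial calls of Lcn2 and Chil1 were lost in the WT series alone, and that of Chil1 also without the block. In marked cells the Lcn2 call was lost without the block. Hp, named after its values were seen, rose by 1.25 log2 in the epithelium and 1.40 log2 in marked cells, in 5 of 7 mice, and DESeq2 called it in neither. Saa1, serum amyloid A, was called lower at -1.57 log2, although its mean was 1186 ± 2224 CPM in high and 953 ± 494 CPM in none cells and it was higher in 2 of 7 mice. The Saa1 call was lost or turned in 7 of 17 alternatives, including those without replicate 1, 2 or 4. In marked cells the Saa1 call was lost in 5 of 17 alternatives, including without replicate 1 or 5, and that of Saa3 without replicate 4.

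Members of the interleukin 6 pathway were called in both directions in the epithelium. Of 13 tested genes 2 were higher and 3 lower in the epithelium, where 5.37% and 8.66% of all genes were, and DESeq2 gave 1 and 3. In marked cells 1 of 12 was higher and 1 lower, where 2.17% and 4.20% of all genes were, and DESeq2 gave 0 and 1. Socs3, a STAT3-induced inhibitor of that pathway, had 361 ± 254 against 143 ± 75.7 CPM (log2 fold change 1.24, SE 0.25, edgeR adjusted p = 0.00045) but was higher in 5 of 7 mice. Its epithelial call was lost with DESeq2, without the block and in the WT series alone. In marked cells Socs3 rose by 0.88 log2, a call lost in 9 of 17 alternatives. Cebpb and Cebpd, C/EBP transcription factors, had 150 ± 198 against 497 ± 467 CPM and 395 ± 146 against 703 ± 290 CPM, each lower in 7 of 7 mice. Lif, a cytokine of the family, fell by 1.32 log2. In the WT series alone the epithelial calls of Cebpb, Cebpd and Lif were lost, and without the block those of Cebpb and Lif. Stat3, Il6st, the shared signalling receptor, and Il6ra, the interleukin 6 receptor, did not pass the test in the epithelium. At an unadjusted p under 0.05 there were 5 members higher and 4 lower there, where 2113 of all 8788 genes were at that threshold. In marked cells there were 2 and 2, where 905 of all 5118 genes were.

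Of 5 liver and luminal transcription factors tested, Foxa1 and Tbx3 were higher and none was lower, where 5.37% and 8.66% of all genes were. Foxa1, a pioneer factor of liver and of the hormone-responsive mammary lineage, had 85.7 ± 48.4 against 12.1 ± 9.87 CPM (log2 fold change 2.52, SE 0.34, edgeR adjusted p = 1.3e-06) and 98.3 ± 61.0 against 25.5 ± 20.5 CPM in marked cells, higher in 6 of 7 mice in both. Tbx3, a T-box repressor of the same lineage, had 67.4 ± 33.1 against 12.4 ± 11.7 CPM, higher in 7 of 7 mice. At an unadjusted p under 0.05 the epithelial counts were the same, 2 and 0, and DESeq2 gave 2 and 0. In marked cells 1 of 3 tested was higher, Foxa1, where 2.17% of all genes were, with 2 at an unadjusted p under 0.05 and 2 by DESeq2. Foxa1 reached at most 59.3 CPM in a none arm there, in replicate 2, and needed the high arm to pass the low-count filter. This count is therefore not comparable with the share of all genes. Tbx3 did not pass there, and Gata3 passed in neither comparison. The Foxa1 call in marked cells was lost in cells of 1000 to 3000 UMIs and in the CB series alone.

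The partners of fibrinogen in clotting were sparse. Of 22 coagulation genes 17 had a UMI in the epithelial cells compared and 4 were tested, and 3 of these were higher and 1 lower, where 5.37% and 8.66% of all genes were. DESeq2 called 2 higher and 1 lower. F3, tissue factor, had 503 ± 497 against 254 ± 177 CPM, higher in 7 of 7 mice (log2 fold change 0.63, SE 0.19, edgeR adjusted p = 0.020), a call lost in 8 of 17 alternatives. Proc, protein C, and Vwf, von Willebrand factor, had 42 and 29 UMIs in the high arm and 22 and 18 in the other. They stood at no more than 6.49 and 7.34 CPM in any none arm and passed the low-count filter only through the high arm. The count of 3 higher is therefore not comparable with the share of all genes. Pros1, the cofactor of protein C, fell by 1.84 log2, at 23.4 ± 21.4 against 54.4 ± 5.38 CPM. In marked cells Pros1 was the 1 of 2 tested genes that was called, lower by 1.69 log2, where 4.20% of all genes were lower and 2.17% higher. Of 10 alternatives 4 lost that call. By edgeR none of 6 fibrinolysis genes passed in the epithelium, with 1 at an unadjusted p under 0.05 and 0 called by DESeq2, and none of 5 in marked cells, with 0 by either count. Anxa2, a plasminogen receptor, had 1171 ± 408 against 972 ± 292 CPM.

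Few relatives and receptors of fibrinogen could be tested. Of 12 genes with a fibrinogen domain 4 were tested, and 1 was higher and 2 were lower in the epithelium, where 5.37% and 8.66% of all genes were, while DESeq2 called 1 and 1. Fgl1 rose to 18.0 ± 21.9 from 3.29 ± 3.48 CPM, on 15 UMIs in the high arm against 17. It passed the low-count filter only through the high arm. Angpt1, a ligand of the Tie2 receptor, fell by 1.51 log2. The matrix protein Tnc had 0 UMIs in the high arm against 70, so it passed the filter only through the other arm. Angpt1 also needed that arm to pass, so these counts are not comparable with the shares of all genes. Fgl1 lost its call in 5 of 10 alternatives, Angpt1 in 3 of 14, including without replicate 2, and Tnc with DESeq2. Fgl2 was found outside the epithelium, at 118 ± 39.0 CPM in immune cells and 208 ± 124 CPM in fibroblasts. By edgeR none of 3 tested receptors passed in the epithelium and none of 2 in marked cells, with 0 at an unadjusted p under 0.05 and 0 by DESeq2 in both. The integrin chain Itgb1 had 434 ± 196 against 372 ± 78.7 CPM. The leukocyte chain Itgam, a fibrinogen receptor, stood at 170 ± 60.7 CPM in macrophage/monocyte-marked cells.

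Keratins, chaperones and the cell cycle completed the lists. Krt19 and Krt7, luminal keratins, were higher in 7 of 7 mice, Krt19 at 5426 ± 2472 against 1374 ± 1041 CPM and Krt7 at 969 ± 251 against 353 ± 158 CPM, and both were also higher in marked cells. There both calls were lost in cells of 1000 to 3000 UMIs, without the block and in the WT series alone, and that of Krt7 also in the CB series alone. The basal keratins Krt14 and Krt17 fell by 2.74 and 3.08 log2, calls lost in the WT series alone. Krt15 was not called. In all, 2 of 5 tested keratins were higher and 2 lower, where 5.37% and 8.66% of all genes were. In marked cells 2 of 5 were higher and 1, Krt17, was lower, where 2.17% and 4.20% of all genes were. Krt17 passed the low-count filter only through the none arm in both comparisons. The counts of lower keratins are therefore not comparable with the shares of all genes. At an unadjusted p under 0.05 there were 3 higher and 2 lower in the epithelium, and 2 and 2 in marked cells. Of 10 chaperones of the secretory pathway, which fold and assemble exported proteins, 1 was lower, where 8.66% of all genes were. This was Hspa5, at 919 ± 264 against 1265 ± 275 CPM, a call lost without the block and in either title series alone. In marked cells edgeR and DESeq2 called 0 chaperones and 1 had an unadjusted p under 0.05. By edgeR none of 10 cell cycle genes passed in either comparison, with 1 at an unadjusted p under 0.05 in each and 0 called by DESeq2. Tubb5, a tubulin, had 362 ± 244 against 300 ± 54.2 CPM. Hk1, Hk2 and Snai1, the hexokinases and the transcription factor the study turned on, did not pass edgeR either, with 0 at an unadjusted p under 0.05 and 0 by DESeq2. Hk1 stood at 68.9 ± 28.5 against 59.6 ± 14.2 CPM. Snai1 was tested in the epithelium alone.

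At the fibrinogen cluster itself only the neighbour Plrg1 had enough UMIs to be tested. It had 99.5 ± 38.9 against 34.9 ± 13.4 CPM, higher in 7 of 7 mice (log2 fold change 1.32, SE 0.22, edgeR adjusted p = 3.6e-05), and 105 ± 43.4 against 45.1 ± 24.1 CPM in marked cells (log2 fold change 0.99, adjusted p = 0.013). The epithelial call was lost in the WT series alone. The call in marked cells was lost without replicate 2, without replicate 4, without the block and in cells of 1000 to 3000 UMIs. Of the other genes most like fibrinogen by class, the 10 named above were all higher in the epithelium, where 5.37% of all genes were. In marked cells 8 of 10 were called higher, where 2.17% of all genes were. Wfdc2 and Mboat1 missed the threshold there at edgeR adjusted p = 0.091 and 0.10. Upk3a and Cdo1 lost the marked-class call in the WT series alone. Gipc2, Tspan1, R3hdml, Fam25c, Krt19 and Ido1 lost the marked-class call without the block, in the WT series alone and in cells of 1000 to 3000 UMIs, where R3hdml stood at 0.030 and Tspan1 at 0.31 log2. The 10 genes were ranked on these cells, so their calls are not independent of that ranking.

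**Figure D5:**
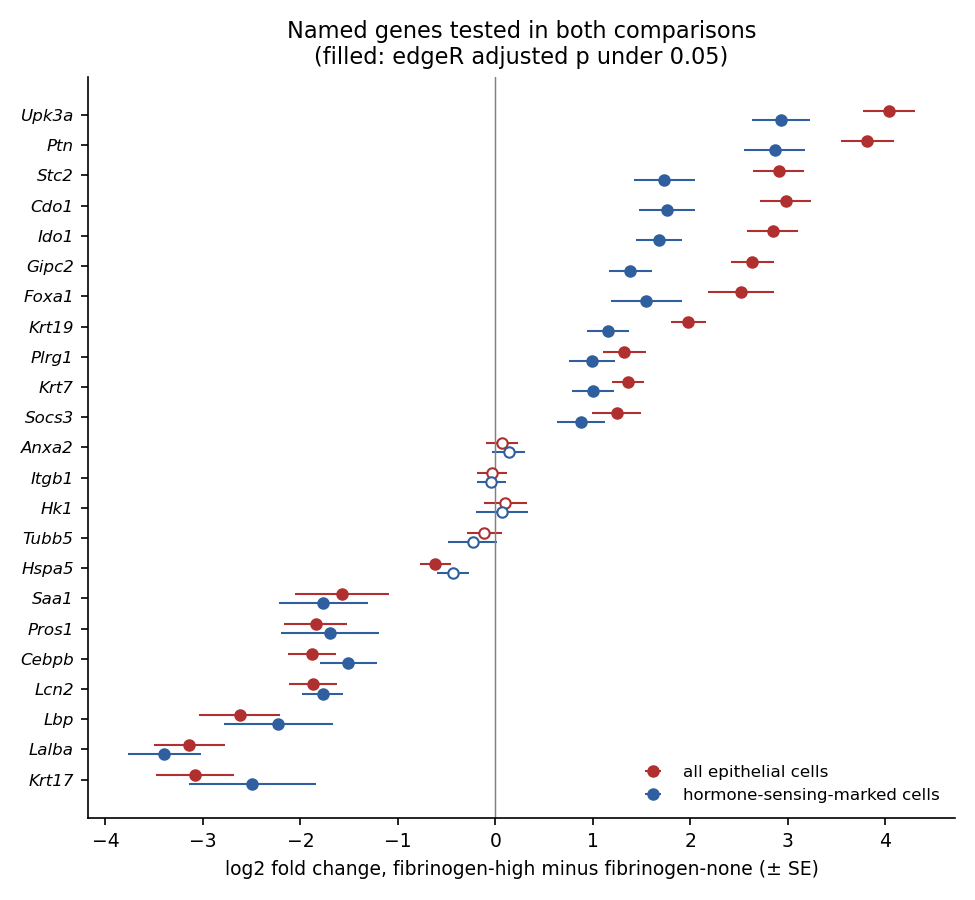
The x axis gives the log2 fold change of fibrinogen-high minus fibrinogen-none cells (± SE) in all epithelial cells (red) and in marked cells (blue) over 7 mice, filled where the edgeR adjusted p was under 0.05. The genes drawn are a selection of the named genes tested in both comparisons. Among them Upk3a is highest at 4.04 and 2.93, and Lalba and Krt17 are lowest at -3.14 and -3.08 in all epithelial cells.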

How the data were processed

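Single cells of 7 control tumors were measured by Drop-seq. By the study's methods, reads were filtered and mapped to mm10 extended by the PyMT transgene, and the authors deposited raw UMI counts per gene and barcode. The submitters' processing notes name STAR and FastQC without versions, and as builds GRCh37.p13 and hg19, which are human, where the methods name mm10. This difference was not settled, and the matrices carry mouse gene symbols. The members and gene lists were chosen with earlier results of these data known.

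From these counts, mitochondrial rows were dropped and barcodes with 200 to 6000 genes kept, with 962677 to 4471473 UMIs per library. No doublet caller was run. Cells with at least 3 UMIs of Epcam, Krt8 and Krt18 were epithelial, and the others took the largest of 6 marker lists with at least 2 UMIs. Levels are CPM of the summed UMIs of a class, and log2 ratios use a pseudocount of 10 CPM.

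Genes were tested on UMIs summed per mouse and arm (at least 3 fibrinogen UMIs against 0, at least 10 cells per arm) with edgeR 4.0.16 (R 4.3.3, TMM, filterByExpr, quasi-likelihood test, Benjamini-Hochberg threshold 0.05). The mouse was a block because both arms came from the same animals. The chain genes, PYMT, Epcam, Krt8, Krt18, Prlr, Cited1 and Esr1 were left out of the tested genes. Markers of the other classes stayed in, among them Krt14 and Krt17, which marked myoepithelial cells. Named genes were the members, the 10 most raised and 5 most lowered calls, up to 4 called members per list (or the most abundant member), the 10 genes most like fibrinogen and the coding neighbours. On simulated counts of the first comparison the test recovered 66 of 72 genes changed by 1.5 log2 and 97 of 97 changed by 3 log2, with 5 of 8223 unchanged genes called. The simulation used 1 mean profile for all mice and 1 dispersion for all genes. It therefore does not give the rate of false calls in the real counts, where mice differed. Alternatives were DESeq2 1.42.0, other thresholds, a depth band of 1000 to 3000 UMIs, no filter, no block, each title series and each mouse left out. Intervals are exact binomial and cover counting error only.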

Additional observations from a re-analysis of the deposited data

Results flagged for a closer look

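Replicate 4 was the highest mouse, by a wide gap to the next, in 3 levels that share cells. These levels are among the values by which the genes were chosen, so they are a description with no test. Its fibrinogen level in epithelial cells was 2678 CPM, and the next mouse had 857 CPM. Fgg in its hormone-sensing-marked cells was at 1583 CPM, the next mouse at 675 CPM. Fgb in its unmarked epithelial cells was at 144 CPM, the next at 44.5 CPM. Without replicate 4 the mean epithelial level was 453 CPM, and the marked cells exceeded the unmarked ones in each of the other 6 mice.

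The barcodes with under 200 genes, which entered no cell class and no test across genes, held fibrinogen at 148 ± 150 CPM (SD, n = 7), above the immune cells of the same library in 7 of 7 mice and above the unmarked epithelial cells in 5 of 7.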

How the results depend on the processing

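The epithelial and marked-cell levels moved by less than 1 SD under every alternative run, and the excess of marked over unmarked cells and the lower level in PYMT cells kept their direction. The SDs between mice, 880 and 1403 CPM, were near the means of 770 and 1590 CPM, so this limit is wide and says little about stability. Leaving out 1 mouse gave epithelial means of 453 to 879 CPM and marked-cell means of 1135 to 1812 CPM. With at least 500 genes per barcode the share of fibrinogen UMIs in epithelial cells moved to 99.3%, and at an epithelial threshold of 5 UMIs to 94.0%. Taking cells with other lineage markers out of the epithelial class gave 75.6%. Their UMIs stayed in the total there, so the rest is not a share of non-epithelial cells. The excess over immune cells moved to 6.08 log2 with a pseudocount of 1 CPM.

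In all epithelial cells 1233 genes were called (472 higher, 761 lower). Without the block there were 508 (232 higher, 276 lower), in the WT series alone 109 (64 and 45), with 227 higher in cells of 1000 to 3000 UMIs and 1196 lower without the filter. Leaving out 1 mouse gave 585 to 1331 (271 to 484 higher, 314 to 847 lower). In marked cells 326 were called (111 and 215). Without the block there were 73 (21 and 52), in cells of 1000 to 3000 UMIs 72 (11 and 61), in CB alone 188 (48 and 140), in WT alone 22 (9 and 13), and without the filter 365 lower. Leaving out 1 mouse gave 233 to 343 (71 to 123 higher, 139 to 220 lower). The cause was not tested.

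Of 1532 alternative values of 99 named results, 1353 kept their direction and side of the threshold, 134 lost a call, 6 gained one and 39 turned sign. In all epithelial cells the turned log2 fold changes were, with DESeq2, 1.06 for Spink12 and 0.017 for Itgb1; with 1 fibrinogen UMI as the limit, 0.041 for Itgb1; in the depth band, -0.40 for Anxa2; without the filter, -0.10 for Anxa2 and -0.069 for Hk1. Without the block they were 0.040 for Itgb1, 0.23 for Saa1 and 0.012 for Tubb5. In WT alone they were -0.13 for Anxa2, 0.14 for Itgb1, 0.49 for Saa1, 0.90 for Csn1s1, 0.47 for Tubb5 and -0.18 for Hk1. Leaving out 1 mouse gave -0.091 to 0.16 for Anxa2, -0.17 to 0.061 for Itgb1 and -0.30 to 0.051 for Tubb5. In marked cells they were 0.44 for Mup5 and -0.12 for Hk1 at 1 fibrinogen UMI, -0.24 for Anxa2, 0.055 for Hspa5 and -0.048 for Hk1 in the depth band, -0.045 for Hk1 at 500 genes, and -0.00082 for Anxa2 and -0.052 for Hk1 without the filter. Without the block Itgb1 turned to 0.053. In WT alone they were -0.16 for Anxa2, 0.13 for Itgb1 and 0.57 for Tubb5. Leaving out 1 mouse gave -0.050 to 0.20 for Anxa2, -0.16 to 0.037 for Itgb1, -0.43 to 0.027 for Tubb5 and -0.060 to 0.22 for Hk1.

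Depth limits the sparse genes: Fga, Nmu, Fgl1 and most coagulation genes rest on few UMIs, and 13 fibrinogen-high cells in replicate 8 give its arm 31898 UMIs.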
